A study of Mus musculus with 6 samples.

Results

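The genes described here encode the enzymes that build and trim the sugar chains of glycoproteins and glycolipids, most of them in the Golgi apparatus. They were chosen by name: every row of the deposited table whose symbol belongs to the Galnt, B3gnt, B3gal, B4gal, St3gal, St6gal, St8sia, Fut, Mgat, Gcnt, Man1 or Man2 families, with Man2b1 left out. The rule found 83 of the table's 20764 rows. Of these, 81 encode an enzyme and were sorted into 12 classes by the sugar linkage they form or remove. The other two were Man2c1os, an antisense RNA of Man2c1, and St6galnac2.1, a second row of a repeated symbol. Man2b2 and Man2c1 fall under the rule although the first encodes a lysosomal and the second a cytosolic mannosidase.

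RNA was sequenced from 266.6 cells, a mouse line from a pancreatic acinar tumour, in 2 groups of 3 libraries. The CAF_CM group was exposed to medium conditioned by cancer-associated fibroblasts for up to 40 days, and the control group is labelled only as control; both were grown in DMEM HG medium with FBS. All 6 libraries come from this 1 tumour line, and neither the time the controls spent in culture nor whether replicates were separate cultures is stated. The p-values therefore rest on the spread among these 6 libraries alone, part of which may be technical. The libraries held from 18622370 to 21002226 reads assigned to genes. A value below is a normalized count: the reads of a gene divided by 1 factor for each library. One read was worth 0.949 to 1.05 normalized counts.

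Glycans are made stepwise. Proteins entering the secretory pathway receive a preassembled N-glycan in the endoplasmic reticulum, which mannosidases trim and transferases of the Golgi then branch, extend with galactose and N-acetylglucosamine (GlcNAc), and cap with fucose and sialic acid. Mucin-type O-glycans begin in the Golgi, when a Galnt enzyme links N-acetylgalactosamine (GalNAc) to serine or threonine. Acinar cells secrete large amounts of digestive enzyme precursors and have a large secretory pathway.

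After CAF_CM exposure, transcripts for some sialyltransferases of low level rose. They were led by St3gal1 (2.90-fold) and the polysialic acid synthases St8sia2 (2.17-fold) and St8sia4 (1.62-fold). Others of low level, St3gal6, St6galnac2, St6galnac5 and St8sia5, were not called. In the α2,3, α2,6 and α2,8 classes 1 of 6, 1 of 6 and 2 of 5 tested genes rose, beside 18.3% of all genes tested. These classes are too small to be set apart from that share. Of the genes of N-glycan processing, Mgat1, which starts the first branch, Fut8, which adds the core fucose, and the mannosidase Man1c1 fell by smaller amounts, the mannosidase Man1a2 rose, and the most abundant, Man1a and Mgat4b, were not called. Among the sialyltransferases of higher level, St3gal5 (1.21-fold) and St6galnac4 (1.17-fold) fell, so the sialyltransferases did not move together. In RNA of whole cultures, fewer cells expressing a gene and less RNA of it per cell cannot be told apart. Of the 83 rows, 68 passed the filter on low values, a normalized count of at least 10 in at least 3 libraries. A gene was called changed at an adjusted p under 0.05 in limma's test on log2(normalized count + 1), with p-values adjusted over all 16169 genes tested. By that rule 29 of the 68 were called (42.6%), beside 34.4% of all genes tested. Of these, 12 rose (17.6%, beside 18.3% of all genes) and 17 fell (25%, beside 16.1%). With library totals as scaling 11 rose and 18 fell, and over all genes 2231 rose and 3179 fell, beside 2953 and 2602. The median log2 fold change was -0.0118 over the 68 genes and 0.00459 over all genes tested. Sizes were modest: the 29 had a median size of change of 0.34 on the log2 scale, as did all called genes, and of the 68 only St3gal1 and St8sia2 moved by 2-fold or more. The number called was 20, 18 and 19 without control 1, 2 and 3, and 32, 27 and 24 without CAF_CM 1, 2 and 3.

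**Figure D1:**
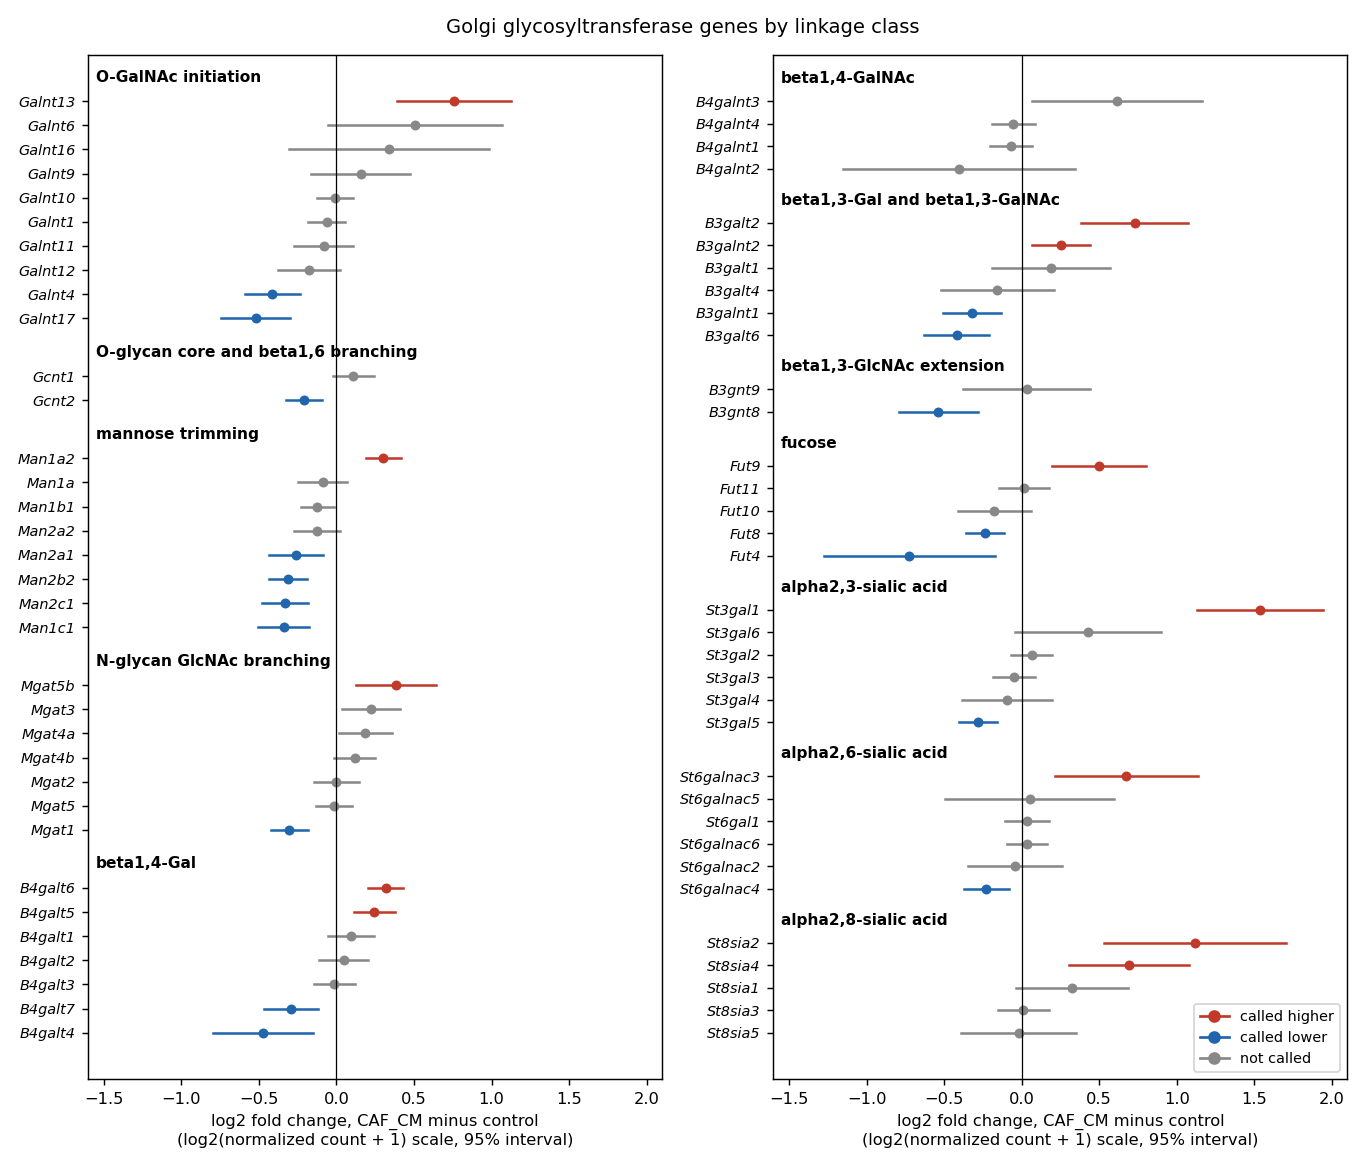
Log2 fold change of CAF_CM against control, on the log2(normalized count + 1) scale, with its 95% interval for the 68 tested genes, grouped by linkage class. Red points are called higher (12), blue points called lower (17) and grey points not called. St3gal1 lies farthest to the right at 1.54.

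The windows before 4 transcription starts are shown because they belong to 3 genes that rose and to a gene of the same family as one of them that fell. Galnt13 and Galnt17 both encode enzymes of the Galnt family and moved in opposite directions. Each line is the reference sequence of RefSeq (GRCm38.p6) for the 250 bases before the annotated start, read 5′ to 3′ on the gene's own strand. Capitals mark the GC box, GGGCGG or its reverse complement, the letters that Sp1-type factors bind. St8sia2 lies on the minus strand at chr7:74013683-74013932, St8sia4 on the minus strand at chr1:95667595-95667844, Galnt13 on the plus strand at chr2:54436137-54436386 and Galnt17 on the minus strand at chr5:131307523-131307772.
St8sia2: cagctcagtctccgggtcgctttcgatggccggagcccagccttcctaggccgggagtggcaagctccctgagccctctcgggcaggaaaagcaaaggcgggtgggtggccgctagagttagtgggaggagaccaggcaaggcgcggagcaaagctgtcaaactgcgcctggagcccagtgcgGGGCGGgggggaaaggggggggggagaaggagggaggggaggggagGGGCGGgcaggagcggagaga
St8sia4: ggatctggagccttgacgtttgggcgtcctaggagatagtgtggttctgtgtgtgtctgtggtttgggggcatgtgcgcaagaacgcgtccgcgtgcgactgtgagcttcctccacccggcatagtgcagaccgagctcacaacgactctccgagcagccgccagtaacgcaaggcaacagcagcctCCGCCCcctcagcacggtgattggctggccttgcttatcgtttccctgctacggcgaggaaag
Galnt13: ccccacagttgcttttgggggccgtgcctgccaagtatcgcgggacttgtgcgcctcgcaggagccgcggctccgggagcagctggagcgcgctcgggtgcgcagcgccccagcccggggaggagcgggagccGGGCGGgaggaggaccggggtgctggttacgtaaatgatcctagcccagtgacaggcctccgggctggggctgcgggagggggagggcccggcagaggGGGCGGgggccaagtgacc
Galnt17: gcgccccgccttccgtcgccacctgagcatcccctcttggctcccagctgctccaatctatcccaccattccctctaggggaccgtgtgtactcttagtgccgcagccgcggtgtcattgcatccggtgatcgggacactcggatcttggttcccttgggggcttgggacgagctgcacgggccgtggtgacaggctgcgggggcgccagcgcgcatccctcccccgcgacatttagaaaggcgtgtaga

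Both St8sia2 and Galnt13 have 2 GC boxes in this window, St8sia4 has 1 and Galnt17 has 0. Galnt17 does not stand for all genes that fell: the windows of B3gnt8 and Man1c1, which also fell, have 5 and 4. RefSeq entries were found for 60 of the genes, St3gal1 not among them, with 83 starts between them. The GC box was present in 50.6% of these 83 windows, in 57.3% of the windows of all tested genes that matched, and in 32.7% of all windows in the table. It stood in 5 of 7 windows, which belong to 7 of the 12 genes that rose. It stood in 11 of 23 windows of 16 of the 17 genes that fell. The STAT motif TTCNNNGAA occurred in 6 of the 83 windows (7.23%, beside 7.02% of all windows and 5.71% of those of tested genes). The cyclic AMP response element TGACGTCA occurred in 2 of 83 (2.41%, beside 1.55% and 2.49%). The Golgi stress response element ACGTGGC occurred in 0 of 83 (beside 2.02% and 2.93%). All motifs were searched on both strands, the last 2 share the letters ACGT, and a match is a match of letters only.

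Sialic acid caps glycan chains, and its transferases are named by the bond they make. Among the α2,3-sialyltransferases, St3gal1 sialylates the core 1 disaccharide (galactose on GalNAc) of O-glycans. St3gal1 stood at 27.9, 35.7 and 24.1 normalized counts in control 1 to 3 and at 77.2, 82.3 and 98.7 in CAF_CM 1 to 3. Every CAF_CM library was more than 2-fold above every control library, and the groups did not overlap. The log2 fold change was 1.54 (SE 0.19, adjusted p = 0.000166), the lowest adjusted p of the 68 genes. St3gal2, which acts on the same disaccharide and is the more abundant transcript per length, stood at 664 ± 27.6 (SD, n = 3) in control and 694 ± 17.0 in CAF_CM, with a log2 fold change of 0.06 (95% interval -0.07 to 0.20). Expressed per kilobase of transcript, St3gal1 rose from 5.10 ± 1.03 to 15.0 ± 1.96 normalized counts, beside 151 ± 6.29 and 158 ± 3.86 for St3gal2.

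St3gal5 encodes the synthase of GM3, the ganglioside from which the more complex ones are made. Its values were 1928, 1756 and 1858 in control 1 to 3 and 1553, 1572 and 1439 in CAF_CM 1 to 3. All 3 CAF_CM libraries lay below all controls, and St3gal5 fell by 0.28 on the log2 scale (SE 0.0567, adjusted p = 0.0031). With a correction for length and GC content the log2 fold change was -0.17 (adjusted p = 0.0152). It supplied 52.8% of the class's summed level per kilobase. The enzymes that act mainly on galactose-GlcNAc ends were not called: St3gal3 gave 953 ± 56.4 and 919 ± 34.2, St3gal4 172 ± 13.8 and 162 ± 29.1, and St3gal6 22.6 ± 3.67 and 30.6 ± 3.90 normalized counts in control and CAF_CM.

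The α2,8-sialyltransferases extend one sialic acid with another. St8sia2 and St8sia4 make polysialic acid, a long chain best known on the neural cell adhesion molecule. St8sia2 had 11.6, 17.3 and 17.8 normalized counts in the controls and 24.7, 42.1 and 38.9 in the CAF_CM libraries. CAF_CM 1 was the lowest of the 3 but still above every control, and the log2 fold change was 1.12 (SE 0.27, adjusted p = 0.00813). St8sia4 had 43.3, 40.8 and 56.5 in the controls and 64.9, 87.2 and 76.9 after exposure. These groups did not overlap either, with a log2 fold change of 0.69 (SE 0.18, adjusted p = 0.0107). Without control 2 its adjusted p was 0.051.

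St8sia3, the most abundant of the class per kilobase (58.5% of the class's level), had 749, 775 and 817 in the controls and 867, 714 and 785 in CAF_CM. The 2 ranges overlapped, and the log2 fold change was 0.01 (95% interval -0.15 to 0.17). St8sia1 encodes the GD3 synthase. It was spread widely after exposure, at 262, 460.3 and 319.9 beside 271 ± 24.6 in control, and was not called (log2 fold change 0.32, adjusted p = 0.154). Without CAF_CM 1 it was called higher (0.51, adjusted p = 0.00681). St8sia5, which makes further gangliosides, gave 62.7 ± 9.45 and 61.8 ± 9.19. In all, 2 of 5 tested α2,8 genes rose (beside 18.3% of all genes tested), with 3 called without CAF_CM 1 and 1 without control 2. A class of 5 genes is too small to be set apart from that share. The class median of 0.32 is the value of St8sia1. The class's summed level per kilobase went from 130 ± 7.33 to 145 ± 7.50.

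Of the α2,6-sialyltransferases, St6gal1 caps N-glycans and the St6galnac enzymes act on GalNAc or on gangliosides. St6gal1 had 1267, 1337 and 1328 normalized counts in the controls and 1342, 1237 and 1459 in CAF_CM, ranges that overlapped (log2 fold change 0.04, 95% interval -0.11 to 0.18). St6galnac3 and St6galnac4 both add a sialic acid to the GalNAc of sialylated core 1, and they moved in opposite directions. St6galnac3 rose from 25.8 ± 2.53 to 42.4 ± 9.56 (log2 fold change 0.68, SE 0.21, adjusted p = 0.0281). That call was lost when length and GC content were corrected for (adjusted p = 0.0775), in DESeq2 (adjusted p = 0.0861) and without control 1, control 2, control 3 or CAF_CM 2 (0.0582 to 0.0977). St6galnac4 fell from 827 ± 14.8 to 707 ± 52.2 (-0.23, SE 0.0654, adjusted p = 0.0193), a call lost without any 1 control or CAF_CM 3 (0.0585 to 0.081). St6galnac2, St6galnac5 and St6galnac6 were not called, with log2 fold changes of -0.04, 0.05 and 0.03.

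**Figure D2:**
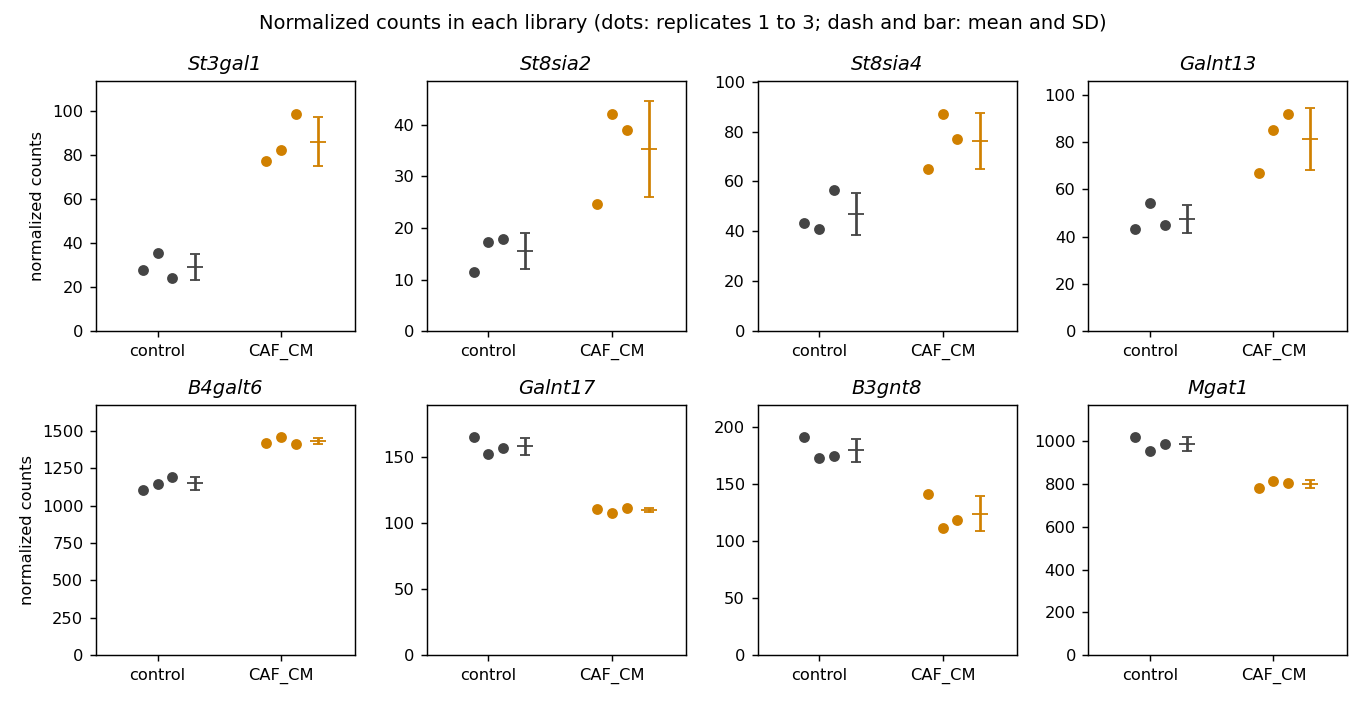
Normalized counts of 8 called genes in each library; dots are replicates 1 to 3 and the dash and bar are the mean and SD. In all 8 panels the 3 CAF_CM libraries lie on 1 side of the 3 controls: above for St3gal1, St8sia2, St8sia4, Galnt13 and B4galt6, below for Galnt17, B3gnt8 and Mgat1.

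O-glycans begin with the 14 rows of the Galnt family, 10 of which were tested. Galnt1, the most abundant (35.8% of the class's level per kilobase), had 1646, 1688 and 1646 normalized counts in the controls and 1659.8, 1482 and 1629.7 in CAF_CM. Only CAF_CM 2 and CAF_CM 3 lay below the controls, and Galnt1 was not called (log2 fold change -0.06, 95% interval -0.19 to 0.06). Galnt13, an isoenzyme best known from neurons, had 43.3, 54.1 and 45.0 in the controls and 66.9, 85.2 and 92.1 in CAF_CM. It rose without overlap, by 0.76 on the log2 scale (SE 0.17, adjusted p = 0.00509).

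Galnt17 and Galnt4 fell. Galnt17 had 165, 152 and 157 in the controls and 110.2, 108 and 111 in CAF_CM, close together within each group (log2 fold change -0.52, SE 0.10, adjusted p = 0.00257). Galnt4, an enzyme that prefers peptides already carrying GalNAc, had 825, 806 and 843 in the controls and 703, 554 and 608 in CAF_CM. Its lowest value was that of CAF_CM 2, and it fell by 0.41 on the log2 scale (SE 0.0814, adjusted p = 0.00266). Its exons share 8.25% of their bases with Poc1b on the same strand, and Poc1b was not called (log2 fold change 0.04, adjusted p = 0.587). The other tested Galnt genes gave log2 fold changes of -0.18 (Galnt12), -0.08 (Galnt11), -0.01 (Galnt10), 0.16 (Galnt9), 0.34 (Galnt16) and 0.51 (Galnt6), with adjusted p from 0.147 to 0.91.

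The next step, core 2 branching, is the work of Gcnt1, with 2378, 2418 and 2610.5 normalized counts in the controls and 2459.8, 2815 and 2715 in CAF_CM. The ranges overlapped and Gcnt1 was not called (log2 fold change 0.11, adjusted p = 0.194), although without CAF_CM 1 it was called higher (0.16, adjusted p = 0.0145). Gcnt2 makes the branches of I-type chains. Its controls had 1136, 1070.2 and 1128 and its CAF_CM libraries 942, 956 and 984, a fall of 0.21 on the log2 scale (SE 0.0538, adjusted p = 0.0113). The call was lost without control 1 or control 3 (0.0628 and 0.0592). Exons of Gcnt2 share 6.84% of their bases with A730081D07Rik, an antisense gene on the other strand.

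Mannose trimming prepares N-glycans for branching. Man1a, Man1a2 and Man1c1 encode the Golgi α1,2-mannosidases, and the 3 moved differently. Man1a is the most abundant transcript of the class per kilobase (32.3% of its level), with 5759, 5924 and 5994 normalized counts in the controls and 5958, 4838 and 5898 in CAF_CM. Only CAF_CM 2 lay below the control range, and Man1a was not called (log2 fold change -0.09, 95% interval -0.25 to 0.07). Man1a2 rose, from 2192, 2343 and 2299.6 to 2674, 2892 and 2867 (0.30, SE 0.0515, adjusted p = 0.00116), and its log2 fold change was 0.14 with a length and GC correction (adjusted p = 0.0234). Man1c1 fell, from 689, 629 and 679 to 484, 572 and 525 (-0.34, SE 0.075, adjusted p = 0.0051).

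Golgi mannosidase II and its relative, Man2a1 and Man2a2, remove the last mannoses to be trimmed, after the first branch is started. Man2a1 was at 2132 ± 13.3 in control and at 1587, 2059 and 1723 in CAF_CM 1 to 3, a fall of 0.26 (SE 0.0796, adjusted p = 0.0255) that CAF_CM 2 barely shared. The call was lost without any 1 control or CAF_CM 3 (adjusted p = 0.0737 to 0.0886), and with the length and GC correction the log2 fold change was -0.40 (adjusted p = 0.0002). Man2a2 (3012 ± 105 and 2767 ± 272) and Man1b1, an α1,2-mannosidase of the early pathway (1528 ± 22.3 and 1403 ± 26.5), were not called, with log2 fold changes of -0.13 and -0.12. Man2a2 was called lower with the length and GC correction (-0.21, adjusted p = 0.00364) and Man1b1 with library totals as scaling (-0.17, adjusted p = 0.0214).

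The mannosidases outside the Golgi fell as well. The lysosomal Man2b2 had 2113, 2161 and 2094 in the controls and 1597, 1822 and 1726 in CAF_CM (-0.31, SE 0.0562, adjusted p = 0.00167). The cytosolic Man2c1, which degrades free oligosaccharides, had 873, 822 and 901 and then 693, 637 and 732 (-0.33, SE 0.068, adjusted p = 0.00323). Its exons share 6.54% of their bases with Man2c1os, which reached at most 13.3 normalized counts in any library. In all, 4 of the 8 genes of the class fell (beside 16.1% of all genes tested) and 1 rose (beside 18.3%). Man2b2 and Man2c1 are among the 4. The number that fell was 3 to 4 with 1 library left out and 5 with the length and GC correction. A class of 8 genes is small, and it was not tested as a set. The class's summed level per kilobase went from 3609.8 ± 39.7 to 3294 ± 87.8.

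Branching starts with Mgat1, whose product adds the first GlcNAc of hybrid and complex N-glycans. Mgat1 had 1019, 957 and 987 normalized counts in the controls and 782, 817 and 803 in CAF_CM. The groups were well apart, and Mgat1 fell by 0.30 on the log2 scale (SE 0.0553, adjusted p = 0.00173). Mgat2, which adds the second GlcNAc, stood at 836 ± 54.9 and 835 ± 33.7, and Mgat5, which makes the β1,6 branch, at 981 ± 2.52 and 972 ± 35.0, with 95% intervals of the log2 fold change of -0.14 to 0.14 and -0.13 to 0.10.

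Mgat4b encodes an enzyme of the β1,4 branch and is the most abundant of the class per kilobase (39.0% of its level). It had 2224, 2019 and 2142 in the controls and 2470.1, 2152 and 2312 in CAF_CM, overlapping ranges with a log2 fold change of 0.12 (adjusted p = 0.157). Its relative Mgat4a gave 1887 ± 49.8 and 2159 ± 268 and Mgat3, which adds the bisecting GlcNAc, 1714 ± 41.5 and 2012 ± 286, with adjusted p = 0.0865 and 0.0644. Mgat3 was called higher in DESeq2 (0.0484), with the length and GC correction (0.0248), with separate group weights (0.0247) and without CAF_CM 1 (0.000237). Mgat4a was called higher with group weights (0.0417) and without CAF_CM 2 (0.00141), and Mgat4b with the length and GC correction (0.0141) and without CAF_CM 2 (0.0345). Mgat5b, an isoenzyme of Mgat5 best known for branching O-mannose glycans in brain, rose from 117 ± 2.38 to 154 ± 19.6 (0.38, SE 0.12, adjusted p = 0.0253). That call was lost in DESeq2 (0.0665) and without any 1 control or CAF_CM 2 (0.0638 to 0.0842).

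Galactose is added to GlcNAc by B4galt1 to B4galt4 and to glucosylceramide by B4galt5 and B4galt6, which make lactosylceramide, the entry to gangliosides. The lactosylceramide synthases both rose. B4galt6 had 1108, 1148 and 1191 normalized counts in the controls and 1422, 1457 and 1416 in CAF_CM (0.32, SE 0.0518, adjusted p = 0.000892), or 0.20 with the length and GC correction (adjusted p = 0.00722). B4galt5 had 604, 568 and 596 and then 702, 712 and 681 (0.24, SE 0.0599, adjusted p = 0.00886), and without control 2 its adjusted p was 0.0563. Neither pair of groups overlapped, and St3gal5, which uses their product, fell as given above.

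Of the other galactosyltransferases, B4galt4 fell from 125 ± 7.51 to 91.0 ± 16.9 (-0.47, SE 0.15, adjusted p = 0.0291), a call lost without any 1 control or CAF_CM 2 (0.0597 to 0.113). B4galt1 (log2 fold change 0.09), B4galt2 (0.05) and B4galt3 (-0.01) were not called (adjusted p = 0.31, 0.646 and 0.881). B4galt1 was called higher without CAF_CM 2 (0.16, adjusted p = 0.0384).

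B4galt7 and B3galt6 add the first and the second galactose of the linker that joins glycosaminoglycan chains to proteoglycans. B4galt7 had 269, 272 and 286 in the controls and 227, 222 and 225 in CAF_CM (-0.29, SE 0.0797, adjusted p = 0.0149), and was not called with the length and GC correction (-0.18, adjusted p = 0.0914) or without control 2 or control 3 (0.0529 and 0.0731). B3galt6 had 332, 296 and 301 and then 255, 209 and 232 (-0.42, SE 0.0957, adjusted p = 0.00603). Xylt2, which adds the xylose before them, fell by 0.59 on the log2 scale (SE 0.0786, adjusted p = 0.000268), while Xylt1, its isoenzyme, rose by 0.22 (SE 0.0645, adjusted p = 0.0229). B3gat3, which adds the glucuronic acid that completes the linker, was not called (662 ± 1.24 and 658 ± 35.8 normalized counts, log2 fold change -0.01, adjusted p = 0.908). Xylt1 and B3gat3 were named after their values were seen.

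The remaining β1,3 transferases of galactose and GalNAc were divided. B3galt2, which makes type 1 chains, had 41.4, 52.0 and 57.6 normalized counts in the controls and 80.3, 84.2 and 85.4 in CAF_CM, a rise of 0.73 (SE 0.16, adjusted p = 0.00441). Its exons share 7.31% of their bases with Cdc73 on the other strand, which also rose, from 1458 ± 19.7 to 1874 ± 44.2 (0.36, adjusted p = 0.000272). The sources used here do not say whether counting used strand. Reads of the 2 genes may not be separable, and the part of Cdc73 in the rise of B3galt2 was not tested. B3galnt1, the globoside synthase, had 340.0, 302 and 329.7 and then 242, 267 and 268 (-0.32, SE 0.0846, adjusted p = 0.0129), a call lost without control 1 or control 3 (0.0686 and 0.0568). B3galnt2, which acts on the O-mannose glycan of dystroglycan, had 304, 264 and 283 in the controls and 318, 340 and 356 in CAF_CM. Its means rose from 284 ± 20.1 to 338 ± 19.0 (0.25, SE 0.0846, adjusted p = 0.0381). This call was lost in DESeq2 (0.105), with library totals as scaling (0.0865) and without control 2, control 3, CAF_CM 2 or CAF_CM 3 (0.0516 to 0.161). Exons of B3galnt2 share 5.13% of their bases with Tbce on the other strand. Tbce was not called (399 ± 17.0 and 354 ± 26.8 normalized counts, log2 fold change -0.18, adjusted p = 0.11). The GM1 synthase B3galt4 and B3galt1 were not called (log2 fold changes -0.16 and 0.19).

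B3gnt8 takes part in the extension of chains with repeated galactose and GlcNAc. It had 191, 172 and 175 normalized counts in the controls and 141, 112 and 119 in CAF_CM. The highest CAF_CM value lay below the lowest control, and the log2 fold change was -0.54 (SE 0.12, adjusted p = 0.00438). Of its exon bases 18.1% are shared with Bckdha, which was not called (313 ± 23.2 and 308 ± 3.85, adjusted p = 0.883). B3gnt9 was not called (38.7 ± 5.48 and 39.5 ± 4.62).

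None of the 4 β1,4-GalNAc transferases was called by limma, edgeR's quasi-likelihood test or DESeq2, and 1 had an unadjusted p under 0.05 in limma. B4galnt4, which makes GalNAc-GlcNAc ends, had 681, 715 and 688 normalized counts in the controls and 703, 634 and 673 in CAF_CM (-0.05, 95% interval -0.19 to 0.08). B4galnt1, the GM2 synthase, stood at 624 ± 27.6 and 595 ± 12.3. B4galnt3, the isoenzyme of B4galnt4, was the gene with the low unadjusted p, at 15.8 ± 3.08 and 24.6 ± 4.33 (0.62, adjusted p = 0.0784). B4galnt2, the Sda synthase, stood at 14.9 ± 5.14 and 10.9 ± 3.41.

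Fucose is placed on the core of N-glycans by Fut8 and on outer chains by Fut4 and Fut9, which make Lewis x. Fut8 had 802, 820.2 and 824 normalized counts in the controls and 674, 710.0 and 689 in CAF_CM, a log2 fold change of -0.24 (SE 0.0561, adjusted p = 0.00722). The controls lay above all CAF_CM libraries. Fut9 rose, from 55.9, 59.2 and 62.8 to 80.3, 79.3 and 93.0 (0.50, SE 0.14, adjusted p = 0.0167). That call was lost in DESeq2 (0.0709) and without control 1, control 2 or CAF_CM 3 (0.0544 to 0.0672). Fut4 fell from 28.9 ± 2.94 to 17.5 ± 4.97 (-0.72, SE 0.25, adjusted p = 0.0434), the highest adjusted p of the called genes. It was not called in DESeq2 (0.144), with no filter (0.0518), or without any 1 control, CAF_CM 2 or CAF_CM 3 (0.0733 to 0.136). Fut10 and Fut11 were not called (log2 fold changes -0.18 and 0.01).

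The 15 rows under the filter reached at most 13.6 normalized counts in any library and were not tested. They were Galnt2, Galnt3, Galnt15, Galnt18, Gcnt4, Gcnt7, St8sia6, B3galt5, B3gnt2, B3gnt7, Fut1, Fut2, Fut7, Man2c1os and St6galnac2.1. Low values of Galnt2 and B3gnt2 are uncertain, since 90.0% of the exon bases of the first are shared with the model Gm20388 and 58.6% of those of the second with Gm28048.

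Per kilobase, the classes differed in level more than they differed between groups. Mannose trimming and N-glycan branching were highest in control, at 3609.8 ± 39.7 and 2281 ± 71.7 normalized counts per kilobase, and β1,3-GlcNAc extension lowest, at 48.6 ± 1.42. The sums of β1,3-GlcNAc extension and O-GalNAc initiation include B3gnt2 and Galnt2 at the low values called uncertain above. The levels of these classes, and their differences between groups, are therefore uncertain too. The summed level lay below all controls in every CAF_CM library for 7 of the 12 classes, above them for 3 (N-glycan branching, β1,4-galactose and α2,8-sialic acid), and overlapped for 2. Among single genes, the groups did not overlap in 47.7% of all genes tested. The most abundant gene supplied 23.3% (β1,4-galactose) to 69.7% (O-glycan core and β1,6 branching) of a class's sum, so the sums partly repeat single-gene results. With library totals as scaling, 8 classes lay below, 0 above and 4 overlapped, so the 3 higher sums depend on the scaling. Among the sums whose groups did not overlap, the difference of the means ran from -18.7% for β1,3-GlcNAc extension to 12.1% for α2,8-sialic acid. It was -10.9% for β1,3-galactose and β1,3-GalNAc, -10.3% for fucose, -9.67% for α2,3-sialic acid, -8.74% for mannose trimming and -6.52% for O-GalNAc initiation. Mannose trimming here includes Man2b2 and Man2c1, whose enzymes lie outside the Golgi. The others were -4.04% for β1,4-GalNAc, 5.03% for β1,4-galactose and 5.46% for N-glycan branching. In the α2,3 class the sum followed St3gal5, at 757 ± 35.6 and 624 ± 29.5 per kilobase, and not St3gal1, whose level was far lower.

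**Figure D3:**
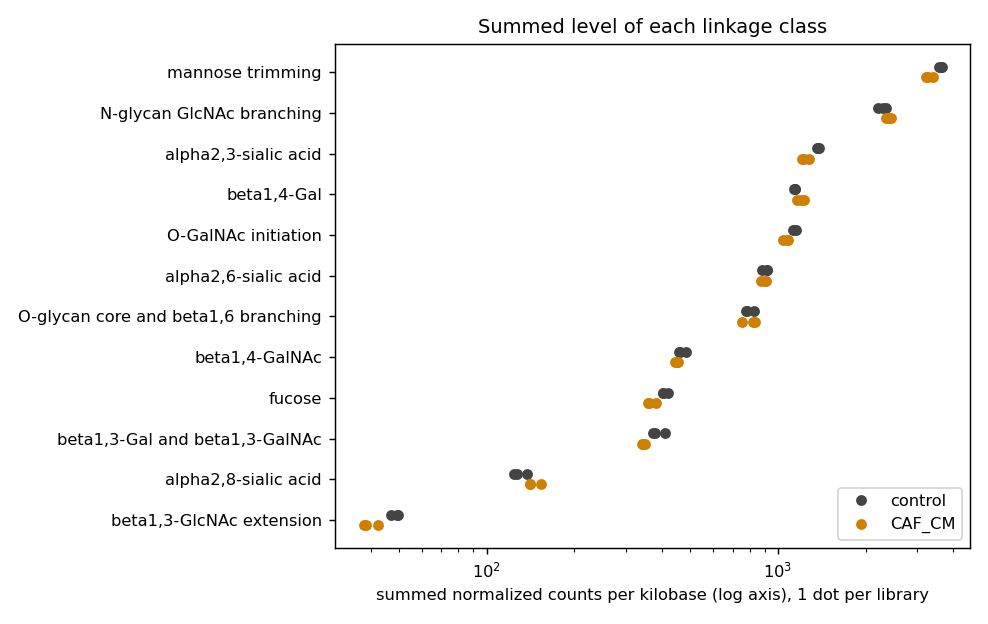
Summed normalized counts per kilobase of the genes in each of the 12 linkage classes, on a log axis, with 1 dot for each library (grey control, orange CAF_CM). Mannose trimming is the highest class and β1,3-GlcNAc extension, in which the low value of B3gnt2 is uncertain, the lowest. The groups are close in all classes.

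The genes that rose and those that fell differed in level and in length. The 12 that rose had a median control value of 54.8 normalized counts and 7 of them were under 100, while the 17 that fell had a median of 815 and 1 of them (Fut4) was under 100. Their median transcript lengths were 6723.5 and 3820 bases and their median GC contents 45.5% and 52.8%. Over all genes tested the same order held: called genes that rose had a median length of 4236 bases and those that fell of 2795. After a correction for length and GC content 27 of the 29 kept their call and direction, all but St6galnac3 and B4galt7. The part of length and GC content in the changes was not tested.

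**Figure D4:**
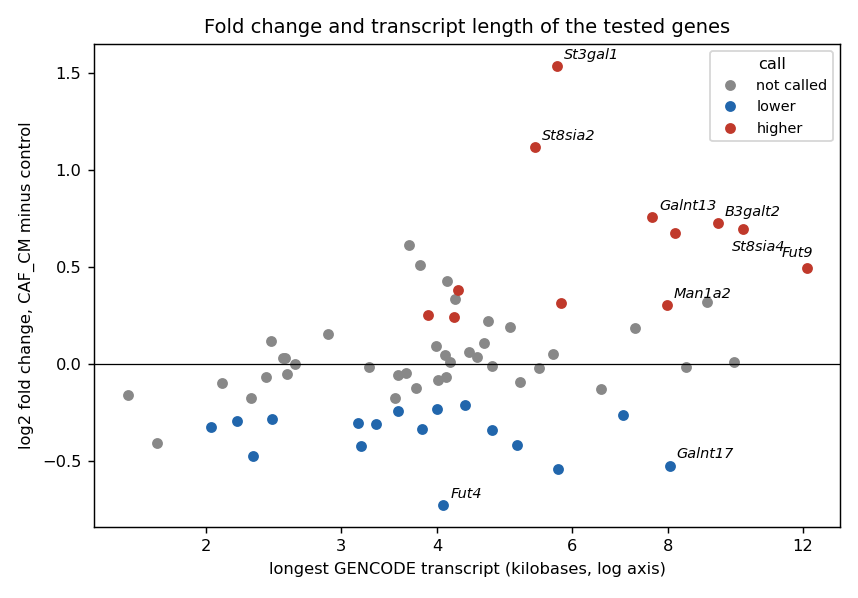
Log2 fold change (CAF_CM minus control) of the tested genes against the length of the longest GENCODE transcript in kilobases, on a log axis. The genes called higher (red, median 6723.5 bases) lie farther right than those called lower (blue, median 3820 bases).

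In all 29 called genes the groups did not overlap, so the 3 CAF_CM libraries lay on the same side of the controls. The calls were made on these same 6 libraries. Neither this nor the library means over called genes given below is therefore separate support for them. Groups did not overlap in 34 of the 68 genes (50%, beside 47.7% of all genes tested). The mean log2 difference from the control mean was 0.50, 0.72 and 0.66 for the genes that rose and -0.33, -0.40 and -0.36 for those that fell, in CAF_CM 1, 2 and 3. CAF_CM 2 held the largest difference for 15 of the 29, and CAF_CM 1 and CAF_CM 3 for 7 each. Replicates were more alike in control, with edgeR's biological coefficient of variation over all genes at 2.21%, than in CAF_CM, at 8.26%.

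The line's identity was checked on acinar genes, and all 10 on the list were tested. Ctrb1, encoding chymotrypsinogen B, was at 45083 ± 997 in control and 23668 ± 2338 normalized counts in CAF_CM, and the acinar factor Rbpjl at 5316 ± 53.4 and 2996 ± 79.7. In all 4 of the 10 fell (also Cela1 and Cel) and 2 rose, beside 16.1% and 18.3% of all genes tested. Those that rose were Nr5a2, from 4017 ± 18.5 to 4690.4 ± 375, and Gata4, from 3822 ± 33.7 to 4266 ± 144. Without control 1 or control 2, 0 rose, and without control 3, 1 did, while 3 rose without CAF_CM 2 and with the length and GC correction. The number that fell was 4 without CAF_CM 1 and 3 without any other 1 library. It was also 3 in DESeq2 and with the length and GC correction. Ptf1a (753 ± 17.0 and 841 ± 144), Bhlha15 (177 ± 6.05 and 196 ± 20) and Cpa1 (2062 ± 56.1 and 2279.5 ± 515) were not called, and neither was Pnlip. Of 11 fibroblast markers 8 had a row, 7 were tested, 1 rose (Col1a2) and 1 fell (Dcn). Col1a2 was still called without CAF_CM 3 but not without any other 1 library. Their summed level ranged from 3515 to 3710 in control and from 3165 to 3649 in CAF_CM, nearly all of it Pdgfrb. Immune markers summed to 88.6 to 105 and 59.7 to 99.7 and endothelial markers to 197 to 226 and 158 to 191; 1 and 2 of them were tested and none was called by limma, edgeR or DESeq2, with 2 endothelial genes and 0 immune genes at an unadjusted p under 0.05 in limma. With the length and GC correction, and without CAF_CM 2 or control 2, 1 endothelial gene was called lower. The part of the acinar genes' change in the glycosyltransferase results was not tested.

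The steps around the transferases were followed in 7 further lists, chosen by role with earlier results of these data known. Of 110 genes tested, 6 rose (5.45%, beside 18.3% of all genes tested) and 43 fell (39.1%, beside 16.1%). With the length and GC correction 15 rose and 40 fell. Nucleotide sugars are the substrates of all the transferases. Of 23 tested genes of their synthesis 4 rose (17.4%, beside 18.3%) and 5 fell (21.7%, beside 16.1%), with a median log2 fold change of -0.01. The number that rose was 8 with the length and GC correction, and 3 fell without any 1 control or CAF_CM 3. Gfpt1, the entry to the hexosamine pathway, rose by 0.33 (adjusted p = 0.000728) and Cmas, which activates sialic acid, by 0.34 (adjusted p = 0.000856). Nanp, which makes free sialic acid from its phosphate, had a log2 fold change of -0.57 (adjusted p = 0.000677), and Galt, which brings galactose into the pool, of -0.53 (adjusted p = 0.000576). The 2 consecutive sialic acid genes Nanp and Cmas thus moved in opposite directions.

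Transporters carry nucleotide sugars and sulfate donor into the Golgi. Of 13 tested, 5 fell (38.5%, beside 16.1% of all genes tested), with a median of -0.17. Among them were Slc35a1, the CMP-sialic acid carrier (-0.30, adjusted p = 0.00516), and Slc35b2 and Slc35b3, which carry the sulfate donor (-0.37 and -0.68, adjusted p = 0.000228 and 0.000264). Slc35d3 went from 32.1 ± 5.30 to 12.1 ± 1.59 normalized counts (-1.33, adjusted p = 0.00159).

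Upstream of the Golgi, the lipid-linked precursor of N-glycans is assembled by the Alg enzymes and their partners. Of 20 genes, 12 fell (60%, beside 16.1% of all genes tested) and 1 rose (5%, beside 18.3%), with a median of -0.23. Alg12 (-0.57, adjusted p = 0.000667), Alg1 (-0.40, adjusted p = 0.00117) and Alg5 (-0.35, adjusted p = 0.00144) fell, and Alg10b rose by 0.26 (adjusted p = 0.00183). The number that fell was 7 with the length and GC correction, 5, 6 and 6 without control 1, 2 and 3, and 12, 7 and 8 without CAF_CM 1, 2 and 3. Of the 16 genes of the oligosaccharyltransferase, which moves the precursor to protein, and the glucosidases that trim it, 10 fell (62.5%, beside 16.1%). The median was -0.16. The falls were led by Rpn2 (-0.38, adjusted p = 0.000191), Ddost (-0.29, adjusted p = 0.000777) and Prkcsh (-0.25, adjusted p = 0.00158). Without control 1 and without control 3, 5 and 6 fell.

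Of 21 other Golgi transferases and their partners, 7 fell (33.3%, beside 16.1% of all genes tested) and 1 rose (4.76%, beside 18.3%). The median was -0.12, and 4 fell without control 2. C1galt1c1, the chaperone of the core 1 synthase that makes the acceptor of St3gal1, fell by 0.35 on the log2 scale (adjusted p = 0.00404). The synthase itself, C1galt1, named after its value was seen, was not called (1253 ± 81.7 and 1283 ± 114 normalized counts, log2 fold change 0.03, adjusted p = 0.759). Gnptg, a subunit of the enzyme that marks lysosomal proteins, had a log2 fold change of -0.40 (adjusted p = 0.000225). The 8 subunits of the conserved oligomeric Golgi complex, a tether that keeps transferases in place, gave no call in limma, edgeR or DESeq2, with 3 at an unadjusted p under 0.05 in limma (median -0.05). With the length and GC correction 2 were called higher, and without CAF_CM 1, 1 was. Of 9 sialidases and galectins, which remove or bind sugars, 4 fell (44.4%, beside 16.1%), with a median of -0.27. Among them were the lysosomal sialidase Neu1 (-0.36, adjusted p = 0.0003), the galectin-binding Lgals3bp (-0.27, adjusted p = 0.00139) and the galectin Lgals4 (-1.11, adjusted p = 0.0093).

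**Figure D5:**
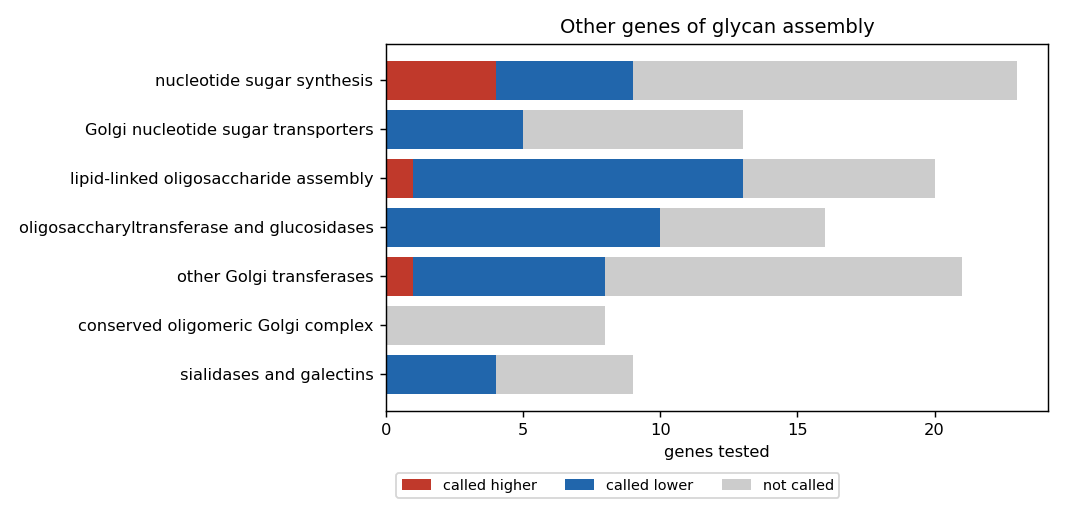
Number of tested genes called higher (red), called lower (blue) or not called (grey) in 7 lists of other genes of glycan assembly. Lipid-linked oligosaccharide assembly has the most genes called lower (12 of 20), and the conserved oligomeric Golgi complex has 0 called of 8 in limma's test. Over all genes tested 18.3% were called higher and 16.1% lower.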

How the data were processed

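Total RNA of 6 libraries was sequenced with a TruSeq kit, per the labels' protocols. The deposited values are a normalized signal: whole read counts that the authors divided by 1 factor for each library. Reads were recovered from these steps, with 100% of values whole within 0.001 read. FastQC and DESeq2 are the tools named in the submitters' processing notes, with hg19, a human build, although the symbols are those of mouse; aligner, counter and strand are not given in the sources used here. The lowest row total was 10 reads, and 168 rows without a symbol (0.153% to 0.261% of reads) were left out of tests.

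Genes with a normalized count of at least 10 in at least 3 libraries (16169) were tested with limma 3.58.1 with trend (R 4.3.3) on log2(normalized count + 1), with Benjamini-Hochberg adjustment over all of them. All p-values in the text are from limma unless edgeR 4.0.16 or DESeq2 1.42.0 is named. Fold changes understate those of low genes. Other settings, run on the recovered reads or the normalized counts, were edgeR, DESeq2, library totals, TMM scaling, a length and GC correction, pseudocounts of 0.5 and 5, no filter, a filter of 50, a replicate block, separate group weights and each library left out. Lengths, of the longest transcript, and exon overlaps come from GENCODE's mouse annotation. The scripts were tested on simulated data. Per-library values are given for the 20 called genes of lowest adjusted p and the gene of highest mean normalized count in each class. For each further list the called genes of lowest adjusted p are named, up to 3. Cmas, Slc35a1, Alg10b, Xylt1, B3gat3, C1galt1 and the marker genes were named after their values were seen. The genes and lists were chosen with earlier results of these data known.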

Additional observations from a re-analysis of the deposited data

How the results depend on the processing

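No called gene of the 29 changed direction under any of the 17 other settings. Of the 29, 16 (6 that rose and 10 that fell) stayed called under each setting that tested them, 13 lost the call under at least 1, 7 of these only when a library was left out, and 8 genes not called gained a call under at least 1. A further 18 genes that were never called changed sign. The count of 29 was 25 in DESeq2, 29 in edgeR, with TMM scaling and with library totals, 30 with the length and GC correction, 28 with no filter, 26 with a filter of 50, which leaves fewer genes tested, and 31 with group weights. Over all genes 3503 rose and 2490 fell with the length and GC correction, beside 2953 and 2602. In the 7 further lists 15 genes rose with the length and GC correction, beside 6, and the cause was not tested. Leaving out 1 library at a time, which leaves fewer samples, gave 18 to 32 called genes, 6 to 15 that rose and 10 to 17 that fell; over all genes it gave 3527 to 6452 called, 1868 to 3509 that rose and 1659 to 2943 that fell; over the lists it gave 31 to 59 called, 4 to 8 that rose and 27 to 51 that fell. The replicate block gave 30 called genes, 13 that rose and 17 that fell (5921 over all genes), with Mgat3 called higher (adjusted p = 0.0363). Same-numbered libraries shared only weak deviations (r = 0.07, 0.03 and 0.03), although every one correlated best with its own number, so the numbers were not taken to pair them. Depth limits genes of low level such as St8sia2, which a filter of 50 leaves untested.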
